A study of Mus musculus with 3 samples.

Results

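The genes described here are 9 members of the MAP kinase cascade that carries the signal of the lipopolysaccharide receptor TLR4, chosen by gene symbol: Mapk3, Mapk8, Mapk9, Mapk14, Map2k3, Map3k7, Map3k8, Mapkapk2 and Mapkapk3. They are 9 of the 55536 annotated genes of the tables, with 69 of the 141767 annotated transcripts. Total RNA depleted of ribosomal RNA was sequenced from the cytosol of bone-marrow-derived macrophages, primary phagocytes grown from the marrow of C57BL/6J mice. All cells had been stimulated for 120 min with lipid A, the part of lipopolysaccharide that TLR4 binds, at 100 ng/ml. The samples form 1 group of 3 libraries, biological replicates 1, 2 and 3 by their labels, without untreated cells, so no response to lipid A was measured here. The 3 replicates carry the same donor identifier and nothing says whether they came from separate animals. The spread between them may therefore be technical.

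MAP kinases are the last step of a chain of kinases in which a MAP3 kinase phosphorylates a MAP2 kinase and the MAP2 kinase phosphorylates the MAP kinase. In macrophages TLR4 signals through the MAP3 kinases TAK1 and TPL2. TAK1, the product of Map3k7, lies upstream of the p38 and JNK branches and of the IκB kinases. TPL2, the product of Map3k8, is held by the NF-κB1 precursor p105 and by ABIN-2 until the IκB kinases free it, and it then drives the ERK branch. The p38 kinases activate the kinases MK2 and MK3, products of Mapkapk2 and Mapkapk3, which act on proteins that control the stability and translation of cytokine mRNAs. These kinases are regulated mostly by phosphorylation, which RNA does not measure.

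The deposited gene tables held 31152786, 114031592 and 59693298 expected counts in replicates 1, 2 and 3, which are read counts assigned by a model. These totals include rows that name no gene. For a gene with 0 counts, 3 counts were taken as the upper bound. That bound was 0.0963, 0.0263 and 0.0503 CPM, where CPM is the count scaled to the library total. All 8 macrophage markers were detected, with Lyz2 at 4039 TPM, and 0 of 12 markers of other cells were, with sums of 1.39, 0.66 and 0.83 TPM. Of these 12, Kit was highest at a mean of 0.567 TPM, and Ly6g, Epcam and Hba-a1 had 0 counts in every library. Replicate 2 stood apart in nuclear and mitochondrial RNA: the nuclear RNA Malat1 had 741, 178 and 812 TPM in replicates 1, 2 and 3, and mitochondrially encoded RNA took 1.80%, 0.376% and 1.41% of TPM. TPM is the deposited level per length, scaled to a fixed sum that also holds abundant small RNAs. Nuclear-encoded protein-coding genes took 23.5%, 21.1% and 22.0% of that sum.

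All 9 cascade genes were detected, which here means a TPM of at least 1 in every library, against 15.7% of all annotated genes. That share is over genes of every class, whereas the 9 are protein-coding. Of the 8699 genes detected, 8281 were nuclear-encoded protein-coding genes. The levels of the 9 cascade genes ran from the abundant kinase gene Mapkapk2, at a mean of 161 TPM, to the JNK1 gene Mapk8, at 2.25 TPM. The median of the 9 genes was 19.2 TPM, against 6.84 TPM for the 8281 detected nuclear-encoded protein-coding genes, and 6 of the 9 lay above that median. The 9 were chosen with earlier results of these data known, so this is a description only. Bulk RNA cannot tell fewer cells of a type from less RNA per cell. All errors are SDs over the 3 libraries.

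Of the MAP3 kinases, Map3k8 (chromosome 18, 4331327 to 4353015, minus strand, mm10) had 23.78, 16.24 and 17.49 TPM in replicates 1, 2 and 3. Its level was 19.2 ± 4.04 TPM, and replicate 1 lay above the other two. Map3k7 (chromosome 4, 31964097 to 32023467, plus strand) had 6.05, 4.87 and 5.21 TPM, a level of 5.38 ± 0.607 TPM. Map3k7 was the lower of the pair in every library, with a log2 ratio over Map3k8 of -1.82 ± 0.13, or 0.283 of the Map3k8 level. The lowest Map3k8 value, 16.24 TPM, was above the highest Map3k7 value, 6.05 TPM.

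Map2k3 encodes MKK3, a MAP2 kinase that phosphorylates p38 (chromosome 11, 60932033 to 60952811, plus strand). It had 33.33, 31.11 and 33.34 TPM in replicates 1, 2 and 3, a level of 32.6 ± 1.28 TPM. In TMM-scaled CPM, described below, its highest and lowest library differed 1.11-fold. Map2k6, which encodes MKK6, the other MAP2 kinase dedicated to p38, had 0.63, 0.35 and 0.36 TPM. The log2 ratio of Map2k3 over Map2k6 was 6.24 ± 0.45, a 75.8-fold difference. Map2k3 held 98.7% ± 0.442 of the summed TPM of the pair.

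Of the MAP kinases, the ERK1 gene Mapk3 (chromosome 7, 126759601 to 126765819, plus strand) was highest among the members, with 35.66, 31.26 and 31.46 TPM. Its level was 32.8 ± 2.48 TPM, with replicate 1 above the other two. By mean TPM it was above 86.7% of the detected protein-coding genes. In TMM-scaled CPM, described below, replicate 2 was highest, with 97.1, 101 and 92.7 in replicates 1, 2 and 3. ERK1 acts in the branch that TPL2 drives.

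The p38α gene Mapk14 (chromosome 17, 28691329 to 28748406, plus strand) had 22.29, 19.76 and 21.56 TPM, a level of 21.2 ± 1.30 TPM. It was the main p38 gene. It held 97.7% ± 0.693 of the TPM summed over the 4 p38 genes Mapk11, Mapk12, Mapk13 and Mapk14. The next of them, the p38β gene Mapk11, had 0.36, 0.35 and 0.63 TPM, and the log2 ratio of Mapk14 over Mapk11 was 5.62 ± 0.46, a 49.3-fold difference. Mapk12 and Mapk13, for p38γ and p38δ, were at 10 counts or fewer in each library.

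The JNK genes were lower. Mapk9, for JNK2 (chromosome 11, 49846751 to 49886421, plus strand), had 6.36, 5.04 and 5.30 TPM, a level of 5.57 ± 0.699 TPM. Mapk8, for JNK1 (chromosome 14, 33377898 to 33447158, minus strand), had 2.88, 1.73 and 2.14 TPM, a level of 2.25 ± 0.583 TPM. The ranges of the pair did not overlap, and Mapk9 was 2.52-fold higher, with a log2 ratio over Mapk8 of 1.33 ± 0.20. Mapk9 held 71.5% ± 2.85 of the JNK total, and Mapk10, the JNK3 gene known from neurons, had 3 counts in replicate 1 and 0 counts in the others.

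Downstream of p38, Mapkapk2 (chromosome 1, 131053700 to 131097826, minus strand) had 177.29, 156.54 and 149.81 TPM, a level of 161 ± 14.3 TPM. This was the highest of the 9 genes in every library and above 97.5% of the detected protein-coding genes. Mapkapk3 (chromosome 9, 107254927 to 107289877, minus strand) had 18.00, 17.20 and 18.03 TPM, a level of 17.7 ± 0.471 TPM. On deposited TPM its coefficient of variation was 2.65%, and in TMM-scaled CPM, described below, its highest and lowest library differed 1.13-fold. The log2 ratio of Mapkapk2 over Mapkapk3 was 3.18 ± 0.12, a 9.06-fold difference. Mapkapk2 held 84.8% ± 0.858 of the TPM of the 3 MAPKAP kinase genes, of which the other is Mapkapk5.

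**Figure D1:**
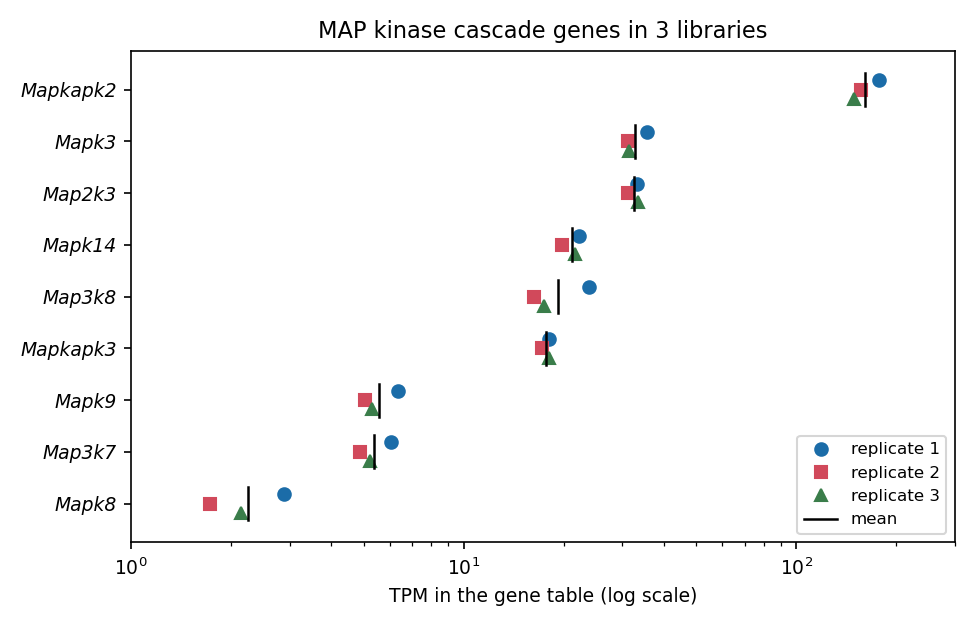
TPM of the 9 cascade genes on a log axis, with 1 marker for each library and a bar for the mean of the 3 libraries. Mapkapk2 stands alone at 161 TPM, 5 genes lie between 17.7 and 32.8 TPM, and Mapk9, Map3k7 and Mapk8 lie below 6 TPM on average.

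In order of level the genes were Mapkapk2, Mapk3, Map2k3, Mapk14, Map3k8, Mapkapk3, Mapk9, Map3k7 and Mapk8. Ranges over the libraries overlapped between 4 neighbouring pairs: Mapk3 and Map2k3, Mapk14 and Map3k8, Map3k8 and Mapkapk3, and Mapk9 and Map3k7. They did not overlap at the other 4 steps, between Mapkapk2 and Mapk3, Map2k3 and Mapk14, Mapkapk3 and Mapk9, and Map3k7 and Mapk8. The plot of levels shows the widest of these gaps above Mapk3 and below Mapkapk3. In the second deposited quantification, which has the column layout of kallisto, Mapk3 and Map2k3 changed places, as did Mapk9 and Map3k7, both pairs with overlapping ranges.

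The ratios within a library do not depend on how libraries are scaled. All 6 ratios computed had the same sign in 3 of 3 libraries, and an exact two-sided sign-flip permutation test over 3 libraries cannot give a p below 0.25, so none was tested. In addition to the 5 above, Map3k8 over Tnip2, the gene of its partner ABIN-2, was at 1.38 ± 0.42 on the log2 scale, or 2.60-fold, and varied from 3.57-fold in replicate 1 to 2.02-fold in replicate 3. In the second quantification the log2 ratio of Map3k7 over Map3k8 was -1.39 and that of Mapkapk2 over Mapkapk3 was 3.05. The signs of all 6 were as in the first quantification.

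**Figure D2:**
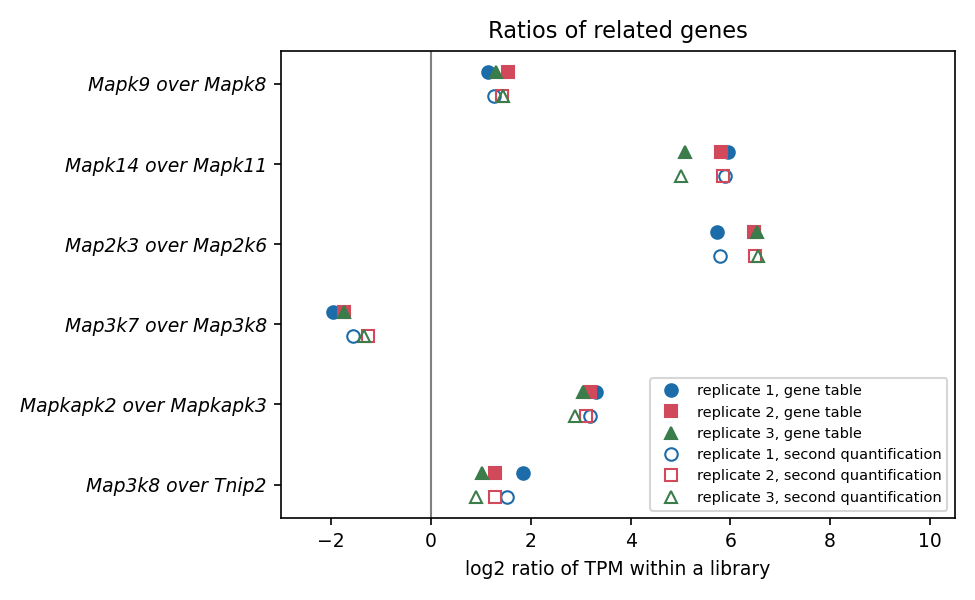
Log2 ratio of TPM within each library for 6 pairs of related genes, with 1 marker for each library, filled for the gene table and open for the second quantification. The pairs of Map2k3 over Map2k6 and Mapk14 over Mapk11 lie above 5, and Map3k7 over Map3k8 is the only pair of the 6 below 0, at a mean of -1.82 in the gene table.

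A Poisson dispersion test asked which genes varied between the libraries beyond counting error, after scaling with TMM factors, which equalize the bulk of genes between libraries. It called 8 of the 9 cascade genes at an adjusted p under 0.05, Benjamini-Hochberg over 14037 genes, of which 62.1% were called. At these depths a call needs little variation: the 8 called genes differed by 1.06-fold to 1.35-fold between the highest and the lowest library in scaled CPM. The median over the 9 genes was 1.11-fold, against 1.16-fold over detected protein-coding genes. Mapk9 was not called, at an adjusted p of 0.482 and a 1.04-fold difference.

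Mapk8 and Map3k8 had the widest spread. Mapk8 had 433, 1118 and 689 expected counts and Map3k8 had 3032, 8644 and 4432. Mapk8 differed 1.35-fold in scaled CPM between libraries, with an adjusted p of 1.68e-06, and 14.1% of detected protein-coding genes differed by more. Map3k8 differed 1.28-fold, with an adjusted p of 3.52e-26, and 21.7% of detected protein-coding genes differed by more. The deposited credibility intervals of TPM, whose level is not given in the sources used here, ran from 22.6 to 24.4 for Map3k8 in replicate 1, from 15.9 to 16.6 in replicate 2 and from 16.8 to 17.9 in replicate 3. These 3 intervals do not overlap. For Mapk8 they ran from 2.73 to 3.79, from 1.66 to 2.11 and from 2.03 to 2.66, and those of replicates 2 and 3 overlap.

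Mapkapk2, counted most deeply with 26163, 94872 and 44658 expected counts, had an adjusted p of 3.40e-121 for a 1.15-fold difference. Mapk14, at 3859, 13997 and 7657 expected counts, was called at 0.0239 for a 1.06-fold difference. Without replicate 1 the test called 5 of the 9 genes, and Mapk14, Map2k3 and Map3k7 were no longer among them, against 45.3% of 14360 genes tested. Without replicate 2 it called 7, losing Mapk3, against 37.9% of 13740 genes. Without replicate 3 it called 7, losing Map3k7, against 49.5% of 13937 genes. The second quantification called all 9, against 74.9% of 17738 genes. The biological coefficient of variation from edgeR ran from 0.0920 for Mapk14 to 0.143 for Mapk8. These are values per gene, drawn toward the trend of genes of like abundance. The trend value was 0.114 for Mapk14 and 0.144 for Mapk8. Map3k8, at 0.120 against 0.112, was the only member above its trend value. Common values were 0.216 over all genes tested and 0.129 over protein-coding genes alone.

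TPM was lowest in replicate 2 for 8 of the 9 genes, with Mapkapk2 the exception, against 63.4% of detected protein-coding genes. The count depended on the scale. In TMM-scaled CPM 1 of the 9 genes was lowest in replicate 2, against 24.5% of the protein-coding genes. With TPM rescaled to nuclear-encoded protein-coding genes, 5 of the 9 were lowest in replicate 2, against 40.2%. Replicate 2 also had the smallest protein-coding share of TPM, 21.1%.

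Several of the members make proteins that differ by a single exon, and the exons that set these forms apart are given here so that the transcript levels below can be read against them. All are coding exons of GENCODE M21 on GRCm38, taken from the GENCODE reference transcripts on the strand of the gene, 5′ to 3′. Capitals mark the bases at which an exon differs from the other exon of its pair. No annotated transcript carries both exons of a pair. In Mapk14 the upstream exon (chr17:28737011-28737090) and the downstream exon (chr17:28740680-28740759) are 80 bases each and differ at 41 of them.
Mapk14 upstream exon: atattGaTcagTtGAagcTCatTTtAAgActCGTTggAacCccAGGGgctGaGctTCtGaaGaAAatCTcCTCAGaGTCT
Mapk14 downstream exon: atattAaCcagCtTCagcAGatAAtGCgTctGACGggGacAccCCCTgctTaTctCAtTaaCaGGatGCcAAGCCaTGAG

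The JNK genes have a pair of 72-base exons known to vary part of the kinase domain, and the copies in Mapk8 and Mapk9 can be lined up base for base. In Mapk9 the exons at chr11:49873836-49873907 and chr11:49874264-49874335, plus strand, differ at 25 bases. In Mapk8 the exons at chr14:33390673-33390744 and chr14:33390242-33390313, minus strand, differ at 27 bases.
Mapk9 upstream exon: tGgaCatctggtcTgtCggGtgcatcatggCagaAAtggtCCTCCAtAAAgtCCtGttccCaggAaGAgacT
Mapk9 downstream exon: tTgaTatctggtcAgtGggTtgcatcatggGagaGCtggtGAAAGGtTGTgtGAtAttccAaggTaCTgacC
Mapk8 upstream exon: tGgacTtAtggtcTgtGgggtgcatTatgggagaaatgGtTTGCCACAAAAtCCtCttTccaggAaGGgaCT
Mapk8 downstream exon: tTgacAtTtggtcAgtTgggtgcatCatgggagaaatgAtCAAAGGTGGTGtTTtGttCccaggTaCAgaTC

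Each JNK exon was closest to the exon in the same place in the other gene. The upstream exons of Mapk8 and Mapk9 were 81.9% identical and the downstream exons 79.2%, whereas the 2 exons were 62.5% identical within Mapk8 and 65.3% within Mapk9. Map3k7 has a single 81-base exon (chr4:31994874-31994954, plus strand) that is either included or skipped, and it has no partner exon, so no base is in capitals.
Map3k7 included exon: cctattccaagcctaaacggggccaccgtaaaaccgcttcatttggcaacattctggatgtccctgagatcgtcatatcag

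Of the coding transcripts of Mapk14 that carry either exon, those with the upstream exon held 88.9%, 90.0% and 87.4% of TPM in replicates 1, 2 and 3. The downstream exon was thus the minor form in every library. In Mapk9 the upstream exon was the minor one, with 7.09%, 5.30% and 8.21%, on 0.41, 0.25 and 0.39 TPM. In Mapk8 the upstream exon took 27.6%, 27.4% and 32.0%, on 0.74, 0.46 and 0.63 TPM. In both genes these levels were below the 1 TPM used for detection. Both JNK genes therefore had most of their RNA in the downstream form, 93.1% ± 1.47 for Mapk9 and 71.0% ± 2.59 for Mapk8, and the ranges of these genes did not overlap. In the second quantification the upstream exon averaged 87.9% in Mapk14, 9.43% in Mapk9 and 20.9% in Mapk8. The quantifications differed on which Mapk9 transcript carried it. The first put it in Mapk9-203, with a coding length of 1143 bases, and the second in Mapk9-202, of 1269 bases.

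The 81-base exon of Map3k7 was included in 48.2%, 41.9% and 41.8% of coding RNA, a mean of 44.0% ± 3.69. The second quantification put it at 66.3% ± 6.96, so the tables disagree on which TAK1 form is the major one. The transcripts Map3k7-202, with an annotated coding length of 1737 bases, and Map3k7-201, of 1818 bases, differ by this exon. They held 51.9% ± 3.15 and 40.9% ± 3.68 of the gene.

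Both JNK genes also have a longer and a shorter coding end, the origin of the long and short JNK proteins seen on gels. The long end took 28.7%, 39.3% and 27.9% of coding Mapk8 RNA, with coding lengths of 1281 bases for the long and 1152 bases for the short form. That long form was at 0.77, 0.66 and 0.55 TPM, below the 1 TPM used for detection. In Mapk9 the long end took 56.7%, 59.1% and 56.4%, with coding lengths of 1269 and 1143 bases. The long end was thus the minor form of Mapk8 and the major form of Mapk9 in each library. In the second quantification the means were 34.4% for Mapk8 and 51.9% for Mapk9, where replicate 2 was at 49.9%.

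**Figure D3:**
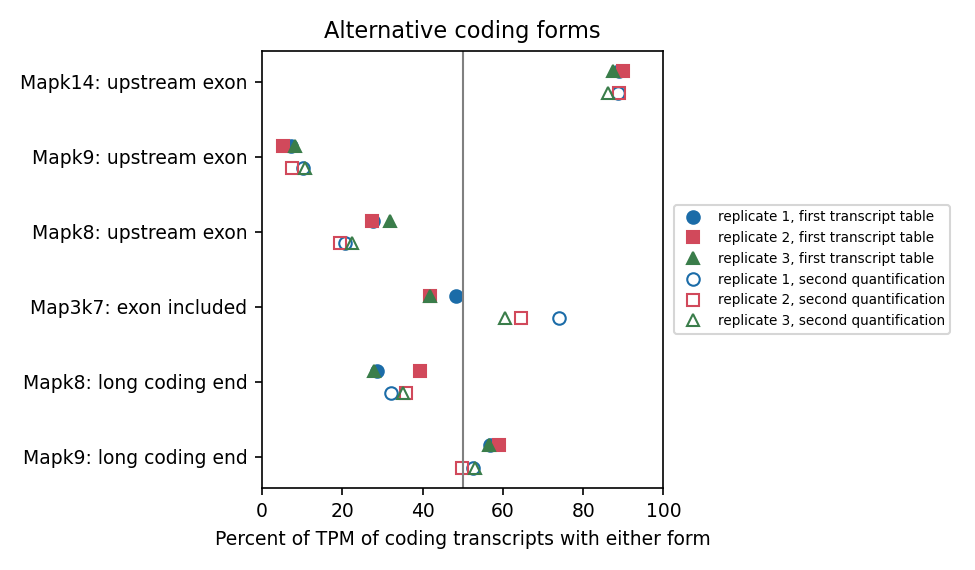
Percent of the TPM of coding transcripts in 1 form of each alternative, with 1 marker for each library, filled for the first quantification and open for the second, and a line at 50%. The upstream exon of Mapk14 lies near 89% and that of Mapk9 near 7%, and the included form of Map3k7 lies on different sides of 50% in the 2 quantifications.

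In the first quantification a single transcript was highest in every library for 7 of the 9 genes. It held over 85% of TPM in each library for Map2k3, Map3k8, Mapkapk2 and Mapkapk3, with means of 98.9% ± 0.846 for Map2k3-201, 90.9% ± 4.92 for Map3k8-201 and 91.4% ± 1.85 for Mapkapk3-201. Mapk3-202, with a coding length of 1140 bases, held 80.9% ± 3.29 of Mapk3, and Mapk3-203, of 795 bases, 18.4% ± 3.63. Mapk9-201 held 52.5% ± 2.57 and Mapk9-204 26.6% ± 3.61 of Mapk9. In the second quantification Mapk3-202 held 90.7% and Mapk3-203 7.87%, and Mapk9-201 held 38.5% and Mapk9-204 37.1%. There Mapk9-204 was first in replicate 2, and Map3k7-201 replaced Map3k7-202 as the highest in every library.

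The exceptions were Mapk14 and Mapk8. Mapk14-203, with a coding length of 849 bases, held 51.9%, 45.7% and 36.9% of the gene in replicates 1, 2 and 3. Mapk14-202, of 1080 bases, held 33.7%, 41.2% and 47.3%, so it was the higher of these in replicate 3 alone. The second quantification put Mapk14-202 first in every library, at 47.6% ± 6.71. Mapk8-203 held 36.6% ± 4.16 and Mapk8-201 30.1% ± 6.69, and Mapk8-201 was higher in replicate 2 alone. Shares of transcripts that share most of their exons are model estimates, and the tables named the same highest transcript in all libraries for 5 of the 9 genes.

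The second transcripts of the other genes were small: Map2k3-203 held 0.393% ± 0.572, Mapkapk2-202 0.0333% ± 0.0208 and Mapkapk3-204 5.28% ± 0.621. Map3k8-203, annotated as a retained intron, held 8.35%, 1.97% and 9.04% of Map3k8, with replicate 2 the lowest. Transcripts of a class other than protein-coding were annotated for 8 of the 9 genes, Mapkapk2 being the exception. Their share of the gene was lowest in replicate 2 in 7 of these 8, and Mapk14 was the exception. This compares with 53.8% of 6554 detected nuclear-encoded protein-coding genes with TPM in such transcripts. The pattern was picked after the values were seen.

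The share was 10.4%, 3.63% and 13.3% in Map3k8 and 9.12%, 6.35% and 10.4% in Mapk9, in replicates 1, 2 and 3 of the first quantification. The median over the 6554 detected protein-coding genes with TPM in such transcripts was 5.47%, 3.48% and 5.98%. Malat1, a nuclear RNA, was also lowest in replicate 2, and its part in these shares was not tested. The second quantification placed 6 of the 8 lowest in replicate 2, against 63.8% of detected protein-coding genes with TPM in such transcripts. It put Map3k7 at 40.2% ± 1.33 against 7.20% ± 1.25 in the first.

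**Figure D4:**
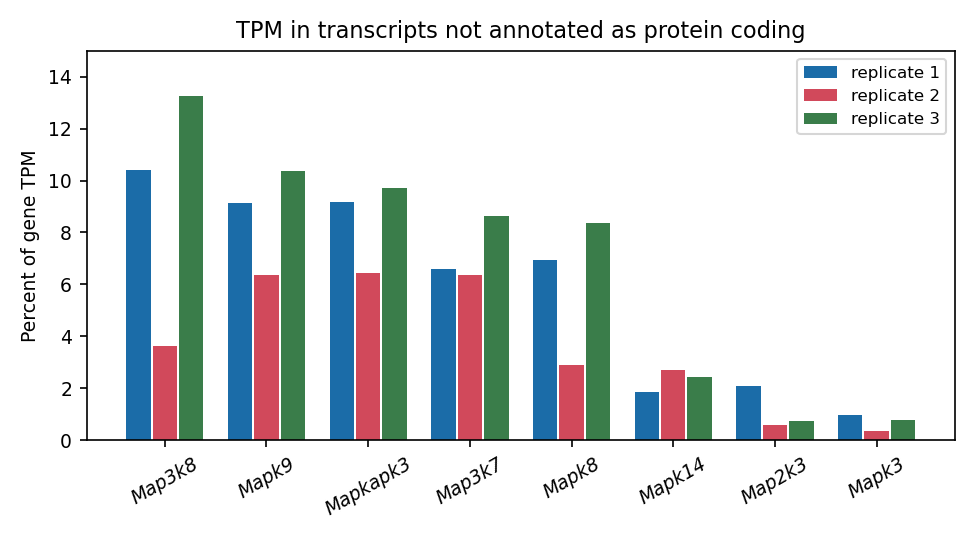
Percent of each gene's TPM in transcripts that are not of the protein-coding class, with 1 bar for each library, for the 8 genes that have such transcripts. Map3k8 is at 3.63% in replicate 2, against 10.4% and 13.3% in replicates 1 and 3.

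Reads of overlapping genes could enter these values, since the strand setting of the counting is not given in the sources used here. No other gene overlapped 5 of the 9 members, and none of the 7 genes overlapping the other 4 touched an exon of a member. The most abundant was Gm49037, a processed pseudogene within Mapk8 on the same strand, at 6.30, 17.5 and 17.5 TPM. Gm49037 had 54.56, 694.96 and 319.74 expected counts in replicates 1, 2 and 3, against 433, 1118 and 689 for Mapk8. Whether its reads entered the Mapk8 values was not tested.

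Around the 9 members, 69 other genes of the cascade in 7 lists gave 50 detected, with a median of 5.60 TPM. Of all annotated genes, of every class, 15.7% were detected. The dispersion test called 50 of the 60 of them that had enough counts, against 62.1% of all genes tested, and the counts called in each list below stand against the same share. Among 8 other MAP kinase genes, 2 were detected: the atypical kinase gene Mapk6 at 73.1 ± 10.3 TPM and the ERK5 gene Mapk7 at 3.74 ± 0.367 TPM. Mapk11 came next and Mapk4 was lowest, with 0 counts. The test called Mapk6 and Mapk11 of the 3 that had enough counts. The median of the list was 0.0233 TPM.

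Of 6 other MAP2 kinase genes 5 were detected, and the test called 4 of the 6. Map2k1 and Map2k2, for the ERK kinases MEK1 and MEK2, were at 22.1 ± 0.843 and 19.0 ± 0.522 TPM, and Map2k4, for the JNK kinase MKK4, was at 15.8 ± 0.562 TPM. Map2k3 was above all of them in each library. Among 17 other MAP3 kinase genes 12 were detected and 13 of 16 called, with Map3k11 at 11.6 ± 0.720, Araf at 9.82 ± 0.930 and Map3k3 at 9.61 ± 1.04 TPM the highest, and Map3k13 the lowest at 0.00667 TPM. None of these 17 reached the lowest Map3k8 value of 16.24 TPM.

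Of 9 partners of TAK1 and TPL2, 8 were detected and 8 called. Nfkb1, whose precursor protein p105 holds TPL2, was at 82.2 ± 8.80 TPM, the TAK1 adaptor gene Tab2 at 38.6 ± 4.42 TPM and the IκB kinase gene Ikbkb at 17.3 ± 2.03 TPM. Tab1, which encodes the activator that binds TAK1 directly, was lowest at 0.43, 0.24 and 0.31 TPM. Nfkb1 and Tab2 were thus above Map3k8 and Map3k7 in every library, and Tnip2, at 7.32 ± 1.17 TPM, was below Map3k8.

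Of 9 other kinase genes activated by MAP kinases, 8 were detected and 7 of 8 called. The RSK2 gene Rps6ka3 was highest at 22.8 ± 2.30 TPM, followed by Mknk2 and Mknk1, whose products phosphorylate the cap-binding factor eIF4E, at 17.6 ± 2.10 and 14.4 ± 3.15 TPM, and Rps6ka6 was lowest with 1 count. Every Mapkapk2 value was above all of them. Of 8 scaffold genes 4 were detected and 6 of 7 called, with Lamtor3, for the MEK1 scaffold MP1, at 30.7 ± 2.06, Spag9, for the JNK scaffold JIP4, at 27.5 ± 3.52 and Lamtor2 at 20.8 ± 0.341 TPM the highest. Mapk8ip2, a JNK scaffold gene, was the lowest with 2 counts.

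Of 12 genes of non-kinase substrates 11 were detected and 10 of 11 called. Zfp36, which encodes tristetraprolin, an mRNA decay factor that MK2 phosphorylates, had 130.84, 65.05 and 81.46 TPM, the highest of the list and widely spread. The cytoskeletal MK2 substrate gene Lsp1 was at 27.0 ± 3.92 TPM and the transcription factor gene Mef2a, a p38 target, at 19.2 ± 3.45 TPM. Hspb1, for the small heat shock protein that MK2 phosphorylates in many cells, was lowest at 0.133 ± 0.0551 TPM. Within each library Mapkapk2 was above Zfp36.

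**Figure D5:**
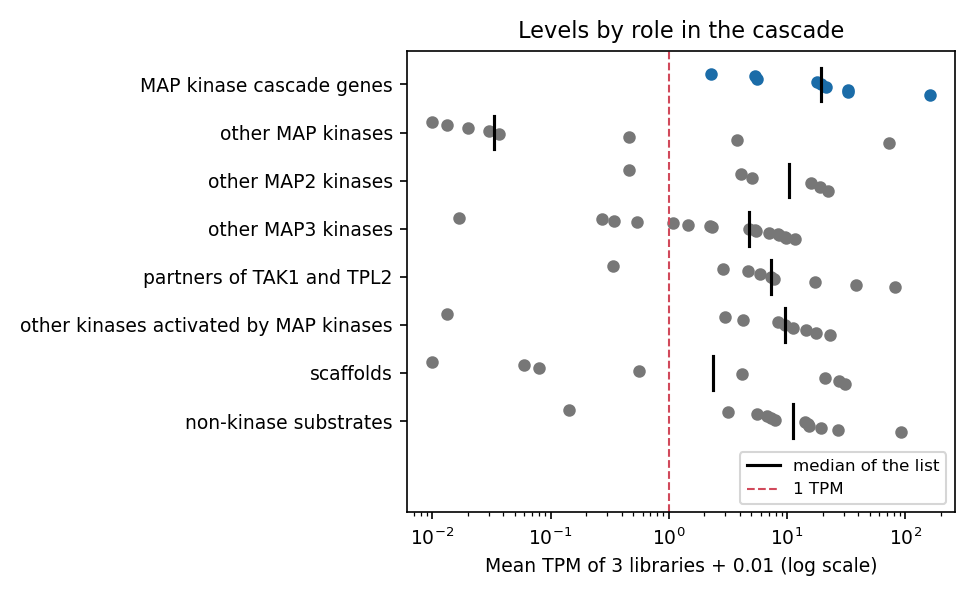
Mean TPM over 3 libraries, plus 0.01, on a log axis for the 9 cascade genes and the 7 lists of other cascade genes, with the median of each list as a black line and 1 TPM as a dashed line. The 9 genes all lie above 1 TPM with a median of 19.2, and the 8 other MAP kinase genes have a median of 0.0233 TPM. The 9 genes are of mixed role. Members and lists were chosen with earlier results of these data known, so the medians only describe the lists.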

How the data were processed

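Total RNA-seq of the cytosolic fraction was available for 3 libraries of 1 group, starting from 1 µg of RNA and sized at 250 to 400 bp by the labels. The deposited gene and transcript tables, in the column layout of RSEM, hold expected counts, TPM, FPKM, the percent of a gene in each transcript and the bounds of a credibility interval of TPM, taken as a signal without a fixed sum, per the file headers. A transcript table in the layout of kallisto, deposited beside them, holds estimated counts and TPM, and its TPM was summed per gene. Alignment was to mm10 with GENCODE M21 per the deposited listing. The sources used here do not give the aligner, tool versions or strand setting.

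Gene symbols, coordinates and exons came from GENCODE M21. Rows that name no gene, such as the phiX control, took 0.655%, 0.0937% and 0.0961% of counts and were left out. Expected counts were rounded, scaled with TMM factors (edgeR 4.0.16, R 4.3.3) and tested for dispersion above Poisson by chi-square (2 degrees of freedom) where a gene averaged at least 10 counts, with Benjamini-Hochberg adjustment at 0.05. The test was checked on simulated data. Alternatives used DESeq2 1.42.0 size factors, other scales and thresholds, each library left out, and the second quantification. Other values were computed with Python 3.11.15, pandas 2.3.3, numpy 2.4.6 and scipy 1.17.1. FPKM served as an alternative scale.

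Results for 1 gene are not reported here. The members and lists were chosen with earlier results of these data known. Genes named are the 9 members, the 3 highest and the lowest of each other list, the genes of each ratio and the 2 highest transcripts of each member. Other genes named, such as Mapk10, Mapk12, Mapk13 and Gm49037, were chosen after their values were seen, as were the exon forms. Shares of exon forms are over coding transcripts alone. Depth and credibility intervals cover error within a library.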

Additional observations from a re-analysis of the deposited data

How the results depend on the processing

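No paired analysis was possible because there was 1 group. The dispersion test called 8 of the 9 members under library totals, DESeq2 size factors, no filter on counts and protein-coding genes alone, against 61.9%, 62.4%, 42.2% and 61.5% of all genes tested in those fits. Over all genes it called 8718 of 14037, 13292 of 17738 in the second quantification and 5205 to 6904 with 1 library left out. Without replicate 1 it called 6509 of 14360 genes and 5 members, without replicate 2 5205 of 13740 genes and 7 members, and without replicate 3 6904 of 13937 genes and 7 members. The median level of the members, 19.2 TPM, was 85.9 when TPM was rescaled to nuclear-encoded protein-coding genes, 7.86 in the second quantification and 36.3 as FPKM, and 17.6 to 20.6 TPM with 1 library left out. These scales have different sums, so the levels are not comparable between them. Rescaled TPM and FPKM each apply 1 factor to all genes of a library, so they could not change the order within it. By mean level the order of the 9 members was the same on both. In the second quantification 5 of the 9 members kept their place.

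In the second quantification the log2 ratio was -1.39 for Map3k7 over Map3k8 and 3.05 for Mapkapk2 over Mapkapk3. There the upstream exon had 9.43% in Mapk9 and 20.9% in Mapk8, the long end of Mapk9 had 51.9%, and the included exon of Map3k7 had 66.3%, on the other side of 50% from the first quantification. The cause was not tested. At a threshold of 0.5 TPM 9 members were detected and at 5 TPM 7. In the second quantification 8 reached 1 TPM in every library, all but Mapk8, at 0.704 TPM in replicate 3. TPM was lower there, with a member median of 7.86 against 19.2, so the same threshold was stricter. The common biological coefficient of variation was 0.216 over 14037 genes and 0.140 without replicate 2. With 3 libraries of 1 group, which may share an animal, no response to lipid A and no difference between conditions can be measured.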
